A study of Mus musculus with 36 samples.

Results

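The comparison described here is that of Pax5-/- pro-B cells carrying the K198Q form of Pax5 with the same cells carrying wild-type Pax5, at the level of RNA. Pax5-/- mouse progenitors in the Lin-B220+IgM- gate were infected with a retrovirus holding no insert (EV), PAX5Wt (written WT), PAX5K198Q (K198Q) or PAX5K198R (K198R), and were grown on inactivated OP9 stromal feeder cells with IL-7, SCF and FLT3-L at 10 ng per mL each. The labels call the cells cultured primary bone marrow pro-B cells, whereas the reporting notes of the study state that Pax5-/- progenitors came from fetal livers, of mice on the C57BL/6 background. Polyadenylated RNA of each of the 4 groups was sequenced in 2 replicates, which according to the methods were generated on different days, and the 2 K198Q and 2 WT libraries are compared. Every cell used, the EV control included, lacked a functional Pax5 gene of its own, so that functional Pax5 came from a viral vector, and each library is a bulk culture in which fewer cells of a type and less RNA per cell cannot be told apart. The genes described are the 12978 of 35896 in the table that reached 10 normalized counts in 2 or more of the 4 K198Q and WT libraries. A normalized count is the number of reads estimated for a gene, divided by a factor for the depth of the library, and is compared here for the same gene between libraries only.

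Pax5 is the paired-domain transcription factor that commits lymphoid progenitors to the B lineage. It switches on genes of the pre-B cell receptor and of B cell signaling, and it holds down genes of T cells, NK cells, myeloid cells and early progenitors. Without it, pro-B cells stop early, keep growing in IL-7 and keep the capacity to turn into other blood cells. The lysine K198, which follows the paired domain, can be acetylated, and the study asked what that acetylation does. Glutamine (K198Q) stands in for acetylated lysine, because it carries no charge, and arginine (K198R) stands in for lysine that cannot be acetylated, because it keeps the charge.

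The altered residue is encoded in exon 5 of the mouse gene, at chr4:44679450-44679452 on the minus strand of GRCm38, the build also called mm10. The reference coding sequence around it is shown with the codon of K198 in capitals, since this is the only place where the viral forms were designed to differ, and with 30 bases on either side. Its first 43 bases lie in exon 5 at chr4:44679440-44679482 and its last 20 in exon 6 at chr4:44645704-44645723.
Pax5 K198 codon: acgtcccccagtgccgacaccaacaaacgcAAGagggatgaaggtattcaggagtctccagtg

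The libraries summed to between 28865461 normalized counts in K198Q replicate 1 and 30520853 in K198R replicate 2, and 5.58% to 6.78% of the total belonged to their 10 most abundant genes. The values had no common step from which whole reads could be counted back, so the depth in reads is unknown. Markers of the B lineage were high in all 8 libraries. Igll1, a surrogate light chain gene, had 21101 and 20814 normalized counts in the K198Q libraries and 23881 and 25754 in the WT libraries. Cd3e, a defining gene of T cells, was listed at no more than 1 in any library, and Ncr1 of NK cells was listed at 0 in all of them. Other markers fixed for T, NK and myeloid cells were present, among them Lck at 1962 to 3118 normalized counts over the 8 libraries, Trbc1 at 30.2 to 572, Nkg7 at 77.7 to 569 and Itgam at 207 to 714.

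The replicates of a group lay further apart than the groups did within a replicate number. The median absolute log2 difference over the 12978 genes was 0.165 between the 2 WT libraries and 0.181 between the 2 K198Q libraries. Between K198Q and WT it was 0.127 for replicate 1 and 0.120 for replicate 2. Libraries with the same number thus shared part of their deviation from the group means, and the counts of genes called between K198Q and WT over all genes are also given with the replicate number as a block.

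Pax5 RNA was present at a higher level with K198Q than with WT in these libraries. The gene, at chr4:44524757-44710487 on the minus strand, had 2201 and 2103 normalized counts with EV, 6458 and 6152 with WT, 8918 and 8963 with K198Q, and 21162 and 16609.5 with K198R. The groups did not overlap, and the order ran from EV through WT and K198Q to K198R. The K198Q libraries averaged 1.42 times the WT libraries, a log2 difference of 0.50 (SE 0.118) that missed the threshold over all genes in limma with Benjamini-Hochberg adjustment (adjusted p = 0.558, and 0.103 with the replicate block). In a blocked fit of the 4 K198Q and WT libraries alone it passed (limma adjusted p = 0.0129). With 2 groups and a block for 4 libraries, that fit leaves little information on the spread of a single gene. It leans on the spread shared across genes, and it called the most genes of the settings tried, 221. The table does not separate viral from endogenous transcripts, and its value with EV shows that the locus still gave RNA in the Pax5-/- cells. K198Q and WT cells thus differed in the amount of Pax5 RNA as well as in residue K198. RNA does not give the amount of Pax5 protein, which these libraries do not measure. In a transfected cell line the paper reports less K198Q protein than wild-type protein, and a shorter half-life. For every difference given below, the part of the amount of RNA or protein cannot be told apart from that of the residue.

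Few genes differed between K198Q and WT cells beyond the spread of the replicates when each gene was judged alone. Of 13345 genes tested over all 8 libraries, 3 were called at an adjusted p under 0.05, a share of 0.0225%, and all 3 were lower with K198Q. At an unadjusted p under 0.05 there were 462 genes (3.46%), 241 higher (1.81%) and 221 lower (1.66%), and 1087 with the replicate block. With the replicate block, 29 genes were called (0.217%), 11 higher and 18 lower, and in a blocked fit of the 4 K198Q and WT libraries alone 221 of 12978 (1.7%), 122 higher and 99 lower. Quantile normalization gave 1 higher and 4 lower. Both K198Q libraries lay above both WT libraries for 1793 genes (13.8%) and below both for 1912 (14.7%). With 2 libraries against 2, the smallest p that an exact two-sided test of 1 gene allows is 0.33, so the p-values are those of limma, which shares information on the spread across genes. Against EV, which both forms share as their control, the fit without the block called 300 genes higher and 134 lower with WT, and 116 higher and 7 lower with K198Q. K198R differed from K198Q by 194 genes higher and 474 lower, and from WT by 103 higher and 280 lower.

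The 3 genes that fell were segments of antigen receptor loci, which lymphocytes rearrange to build their receptors. Ighv5-4, a variable segment of the immunoglobulin heavy chain at chr12:113597446-113597977, had 239 and 179 normalized counts with WT and 6.96 and 5.94 with K198Q, against 67.0 and 51.9 with EV and 10.3 and 15.0 with K198R. This is a log2 fold change of -4.80 (SE 0.358), with an adjusted p of 0.0163 in limma. Of the K198Q and WT libraries, it reached 10 normalized counts in those of WT alone, so that it had to differ. Trgc2, a constant segment of the T cell receptor gamma chain at chr13:19304649-19307551, had 1259.5 and 1717 with WT and 141 and 96.5 with K198Q, against 15.0 and 14.0 with EV and 139.8 and 71.8 with K198R. On the log2 scale it fell by 3.64 (SE 0.357; adjusted p = 0.0454 in limma). Trdv5, a variable segment of the delta chain at chr14:54148662-54149294, had 122 and 205 with WT and 13.9 and 12.9 with K198Q, against 63.3 and 59.9 with EV and 51.6 and 37.1 with K198R, which is -3.47 as a log2 fold change (SE 0.345, adjusted p = 0.0454 in limma). In each of the 3 the WT libraries were the highest of the 8. Leaving out any 1 of the WT or K198Q libraries ended all 3 calls, with adjusted p between 0.127 and 0.202 for Ighv5-4, 0.216 and 0.435 for Trgc2, and 0.172 and 0.435 for Trdv5. Without either EV library Trgc2 and Trdv5 were not called either (0.111 and 0.114 for both), nor was Trdv5 without either K198R library (0.0672 and 0.0624). Related receptor segments share sequence, so reads could be split between them.

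Receptor segments did not move one way. Over the 58 measured segments, a set chosen after these values were seen, the median log2 difference was -0.01. For 12 (20.7%, against 13.8% over all genes) both K198Q libraries lay above both WT libraries, and for 13 (22.4%, against 14.7%) below both. Segments that reached 10 normalized counts in only 1 of the 2 groups, Ighv5-4 among them, had to separate in this way. The shares without such segments were not computed. Igkv4-91, a variable segment of the kappa light chain, had 116 and 99.3 normalized counts with K198Q, 0 and 0.998 with WT and 0 in the EV and K198R libraries (adjusted p = 0.0639 in limma, 0.0297 with the block). Ighv3-3 had 39.3 and 44.4 with K198Q and was listed at 0 in both WT libraries (limma adjusted p = 0.128, and 0.014 in the blocked fit of 4). Trav21-dv12, of the T cell receptor alpha and delta locus, had 29.9 and 39.2 with WT and was listed at 0 in both K198Q libraries. Igkv4-91, Ighv3-3 and Trav21-dv12 each met the minimum of 10 through 1 group alone. A difference was thus set by the filter, and the p-values given for them lend it no further support.

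Several further genes were far apart in the libraries and passed the threshold with the replicate block, without which limma left them above 0.05. Rasgrp1, an activator of Ras downstream of antigen receptors, had 1455 and 1793 normalized counts with WT and 754 and 713 with K198Q, a log2 difference of -1.14 (SE 0.163, adjusted p = 0.128, and 0.0349 with the block). Dock1, an activator of Rac, had 132 and 209 with WT and 9.90 and 15.4 with K198Q (log2 difference -3.65, adjusted p = 0.128, and 0.0205 with the block). Gldc, the glycine decarboxylase, had 326 and 333 with WT and 71.5 and 61.2 with K198Q (log2 difference -2.30, adjusted p = 0.0679, and 0.0297 with the block). Fut4, a fucosyltransferase, had 155 and 227 with WT and 33.1 and 25.8 with K198Q, with 15.1 and 17.8 in the EV libraries. Zcchc18, a zinc finger gene, had 47.1 and 86.1 with WT and 0.624 and 2.70 with K198Q. Dock1, Fut4 and Zcchc18 were high with WT and low in the other 3 groups, whereas for Rasgrp1 and Gldc the K198Q libraries lay between those of WT and EV. Gm13378 was listed at 0 in both K198Q libraries and at 19.9 and 30.3 in the WT libraries. Gm45062 was listed at 0 in both WT libraries and at 193 and 38.1 in the K198Q libraries. Zcchc18, Gm13378 and Gm45062 reached 10 normalized counts in only 1 of the 2 groups, so that they had to differ.

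Among genes higher with K198Q, Runx2, a Runt factor known from bone and from lymphoid progenitors, had 848 and 718 normalized counts with WT and 1280.4 and 1382 with K198Q, against 1807 and 1956 with EV. The log2 difference between K198Q and WT was 0.77 (SE 0.120, limma adjusted p = 0.195, and 0.0477 with the block). Rps6ka1, a kinase activated by ERK, had 1149 and 1008 with WT and 1611 and 1565 with K198Q, with 2460.4 and 2329 in the EV libraries (log2 difference 0.56, adjusted p = 0.253, and 0.0477 with the block). For both genes the K198Q libraries lay between the WT and the EV libraries. Cdkl2, a kinase of the CDK-like family, had 5.42 and 6.27 with WT and 72.8 and 54.2 with K198Q (log2 difference 3.22, adjusted p = 0.126, and 0.0428 with the block). Adam11 had 5.88 and 3.50 with WT and 72.3 and 30.2 with K198Q. Mt1, a metallothionein, had 45.3 and 62.3 with WT and 159.6 and 132 with K198Q, and Acpp, an acid phosphatase, had 2.66 and 5.63 with WT and 45.6 and 43.1 with K198Q, and neither passed with the block in the 8 libraries, whereas both did in the blocked fit of 4 (limma adjusted p = 0.0482 and 0.0256). Cdkl2 and Acpp were higher with K198Q than in any other group. Cdkl2, Adam11 and Acpp reached 10 normalized counts with K198Q but in neither WT library, so that they had to differ.

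**Figure D1:**
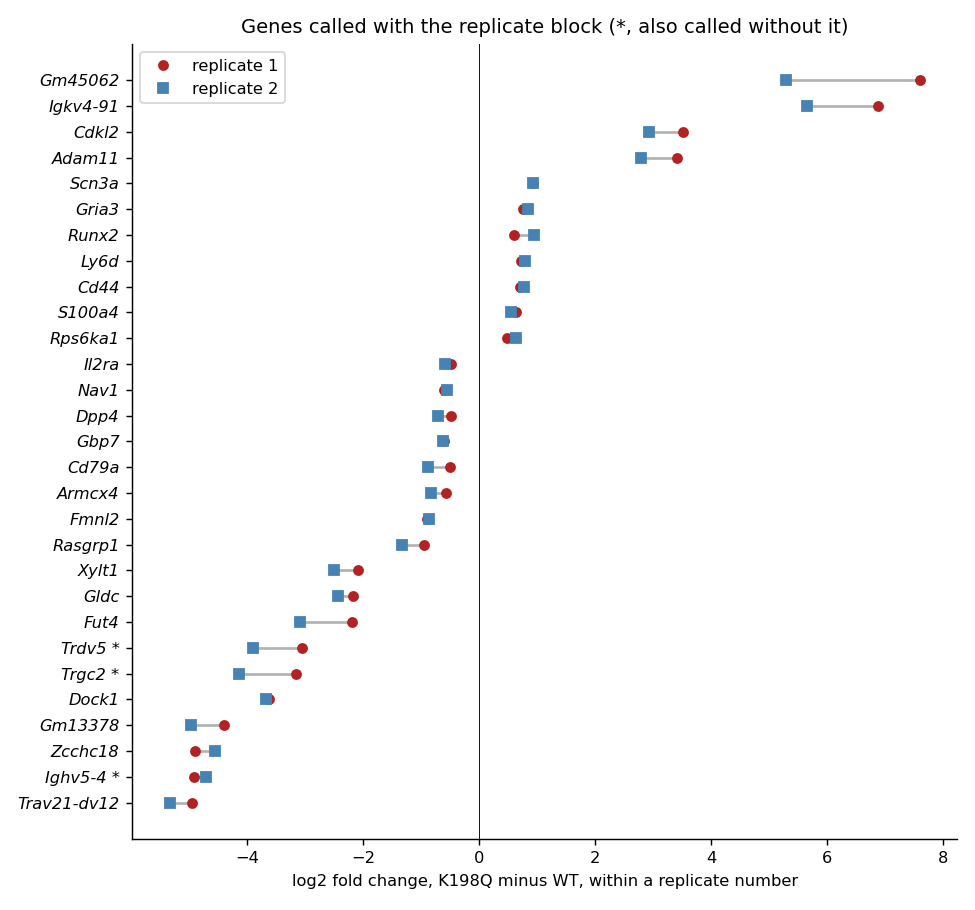
The 29 genes called with the replicate block, with the log2 fold change of K198Q against WT on the horizontal axis within replicate 1 (circles) and replicate 2 (squares); an asterisk marks the 3 also called without the block. In each gene both replicates lie on the same side of 0, and 11 genes lie above it and 18 below; values of genes listed at 0 in a group depend on the pseudocount of 1.

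Other genes called with the block fall outside the rule for named genes and were picked after their values were seen. Xylt1, a xylosyltransferase of proteoglycan synthesis, had 518 and 633 normalized counts with WT and 121 and 111 with K198Q. Fmnl2, a formin, had 2614 and 3161 with WT and 1404 and 1731 with K198Q. Ly6d, a surface protein that marks B-biased lymphoid progenitors, had 5162 and 3703 with WT and 8477 and 6443 with K198Q, and S100a4, a calcium-binding protein, had 3086 and 2953 with WT and 4773 and 4349 with K198Q. Armcx4, Dpp4 and Nav1 were lower with K198Q, and Gria3 and Scn3a higher.

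The genes that responded to K198R gave a description that does not rest on calls of single genes. K198R and EV libraries are no part of the contrast of K198Q with WT, so they were fitted alone to set 2 classes of genes, those raised and those lowered by K198R against EV with 1.5 or more as the size of the log2 fold change and less than 0.05 as the adjusted p. Pax5 itself was left out. The raised class held 132 of the 12978 genes and the lowered class 249. In the raised class the median log2 difference of K198Q from WT was -0.46, with -0.38 in replicate 1 and -0.56 in replicate 2, and 113 of 132 genes (85.6%) were lower with K198Q. In the lowered class the median was 0.51, with 0.44 and 0.55 in the replicates, and 212 of 249 genes (85.1%) were higher with K198Q. Over the 12596 genes in neither class the median was -0.01. Both K198Q libraries lay below both WT libraries for 88 of the raised genes (66.7%, against 14.7% over all) and above both for 162 of the lowered genes (65.1%, against 13.8%). At an unadjusted p under 0.05, 43 raised genes (32.6%, against 1.66% over all) were lower and 4 higher, and 74 lowered genes (29.7%, against 1.81%) were higher and 3 lower. In the blocked fit of 4 libraries, 35 of the raised genes were called lower and 1 higher. Of the lowered genes 49 were called higher and 3 lower in that fit, where 1.7% of all genes were called. With the block in all 8 libraries, 2 raised genes were called lower and 0 higher, and 2 lowered genes higher and 1 lower. There 0.217% of all genes were called. Genes that reached 10 normalized counts in only 1 of the 2 groups, which had to differ, numbered 3 in the raised class and 7 in the lowered class. Without them the medians were -0.45 and 0.49, with 110 of 129 raised genes lower and 206 of 242 lowered genes higher.

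Set beside EV, which is shared by the comparisons that follow, K198Q moved these genes in the direction of WT but by less. The median log2 difference from EV in the raised class was 1.95 with WT, 1.48 with K198Q and 2.89 with K198R. In the lowered class it was -1.14 with WT, -0.58 with K198Q and -2.45 with K198R. The place of K198R follows from how the classes were chosen, whereas that of K198Q against WT does not. In both classes K198Q was nearer to EV than WT was. The part that the amount of Pax5 RNA or protein had in this was not tested.

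The difference between K198Q and WT was graded with the response to K198R. For 69 genes that K198R lowered by more than 3 on the log2 scale the median log2 difference of K198Q from WT was 0.83, for 268 genes lowered by 2 to 3 it was 0.55, and for 568 lowered by 1 to 2 it was 0.22. For the 9970 genes within 0.5 of no response it was -0.01. On the other side it was -0.23 for 300 genes raised by 1 to 2, -0.39 for 80 raised by 2 to 3, -0.57 for 53 raised by 3 to 5 and -0.93 for 20 raised by 5 or more. All of these 20 genes were lower with K198Q than with WT in the mean of the replicates. Without either EV library the classes could not be set in the same way, since 8 and 7 genes were raised and 0 lowered; the medians for the raised class were then -0.76 and -0.86. Without K198R replicate 2 the classes held 76 and 86 genes, with medians of -0.63 and 0.63, and without K198R replicate 1 they held 127 and 430, with medians of -0.49 and 0.49.

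**Figure D2:**
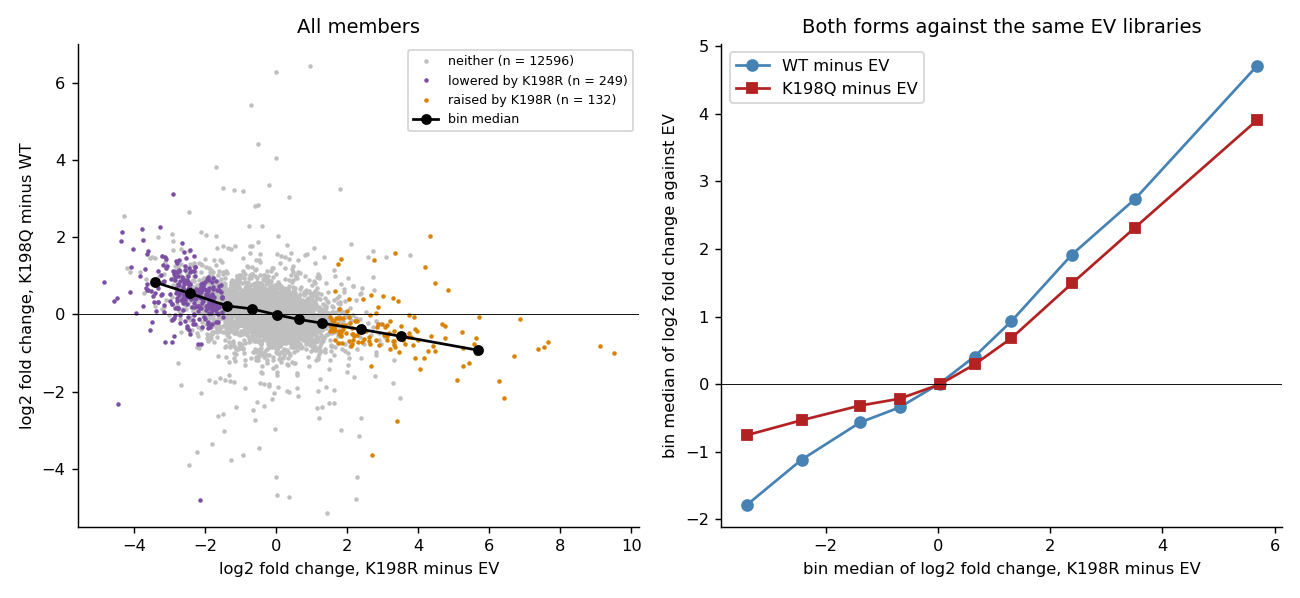
Left, log2 fold change of K198Q against WT (vertical) over that of K198R against EV (horizontal) for each gene, with the 132 genes raised and the 249 lowered by K198R in color and bin medians in black. Right, bin medians of WT and of K198Q against the EV libraries they share, over the bin medians of K198R against EV; the black medians run from 0.83 to -0.93, and the K198Q line lies nearer to 0 than the WT line at both ends.

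Genes of the pre-B cell receptor and of B cell signaling, which Pax5 activates directly, were the best known members of the raised class. Cd79a, a signaling chain of the receptor, had 7561 and 9491 normalized counts with WT and 5321 and 5140.4 with K198Q, against 2282 and 2247 with EV and 13596 and 14080.5 with K198R. Its log2 difference was -0.70 (SE 0.113, limma adjusted p = 0.217), and with the replicate block it fell (adjusted p = 0.0471). Blnk, the adaptor that links the receptor to downstream kinases, had 915 and 954 with WT and 547 and 397 with K198Q, against 2.56 and 4.90 with EV and 3586 and 3133 with K198R (log2 difference -1.0, SE 0.268, limma adjusted p = 0.746, and 0.0194 in the blocked fit of 4 libraries). In both genes the order of the groups was EV, K198Q, WT and K198R, with no overlap.

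Other chains of the receptor were closer together. Vpreb3, a relative of the surrogate light chain genes, had 4163 and 5199.7 normalized counts with WT and 3471 and 3158 with K198Q, a log2 difference of -0.49 (SE 0.124, limma adjusted p = 0.69). Cd79b, the partner chain of Cd79a, had 5365 and 6197 with WT and 4913 and 5201 with K198Q. The surrogate light chain genes Vpreb1a and Vpreb1b, near-identical copies between which reads could be split, had log2 differences of -0.19 and -0.29. Over the 20 measured genes of the list for the pre-B cell receptor and its proximal kinases, 12 were lower and 8 higher with K198Q, with a median log2 difference of -0.14, and 3 (15.0%, against 1.66% over all genes) were lower and 0 higher at an unadjusted p under 0.05. Of those 3, Cd79a, Vpreb3 and Blnk, Cd79a alone was called with the block in all 8 libraries.

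**Figure D3:**
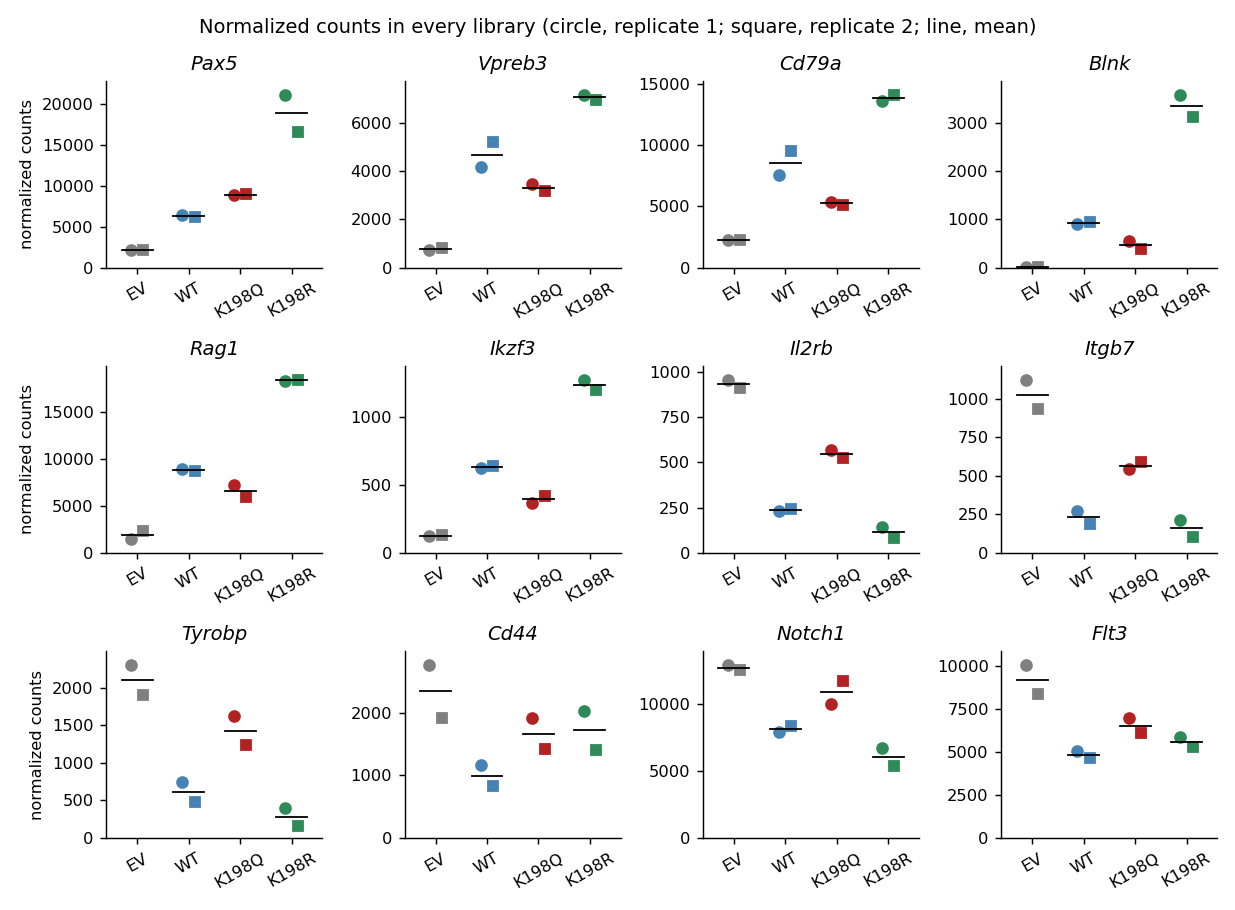
Normalized counts of 12 genes in each library of Pax5-/- cells with EV, WT, K198Q or K198R, with a circle for replicate 1, a square for replicate 2 and a line at the mean; each panel has its own axis from 0. For Vpreb3, Cd79a, Blnk, Rag1 and Ikzf3 the K198Q libraries lie between EV and WT from below, and for Il2rb, Itgb7, Tyrobp, Notch1 and Flt3 from above.

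The recombinase genes Rag1 and Rag2 and their regulator Foxo1, of the list for V(D)J recombination, which cuts and joins receptor segments, had the same order of groups. Rag1 had 8938 and 8704 normalized counts with WT and 7229.8 and 5909 with K198Q, against 1443 and 2289 with EV and 18291 and 18398 with K198R (log2 difference -0.43, limma adjusted p = 1, and 0.0411 in the blocked fit of 4 libraries). Rag2 had 862 and 709 with WT and 638 and 535 with K198Q (log2 difference -0.42). Dntt, which adds bases at the joints, was near the limit of the filter, with 19.0 and 20.3 with WT and 4.43 and 1.79 with K198Q. Foxo1, a factor that drives Rag transcription, had 3420.3 and 3329 with WT and 2943 and 2709 with K198Q (log2 difference -0.26, SE 0.0844). Of the 16 measured genes of this list 12 were lower and 4 higher with K198Q, with a median log2 difference of -0.11, and 2 (12.5%, against 1.66%) were lower at an unadjusted p under 0.05. One of these, Dntt, met the minimum of 10 through the WT libraries alone, and without it 11 of 15 were lower, with a median of -0.09, and 1 at an unadjusted p under 0.05, Foxo1. Atm, a kinase of the response to DNA breaks, had 2656 and 2630.4 with WT and 2350.3 and 2266 with K198Q.

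Of the transcription factors of the B lineage, Ikzf3, Bach2 and Foxo1 lay lower with K198Q at an unadjusted p under 0.05, and of these Ikzf3 alone was in the raised class; Foxo1 and Bach2 were also higher with K198R than with EV in the fit that set the classes (limma adjusted p = 0.00624 and 0.0292), by less than the 1.5 required. Ikzf3, which encodes Aiolos, had 627 and 639 normalized counts with WT and 364 and 420.1 with K198Q, against 123 and 127 with EV and 1272 and 1201 with K198R (log2 difference -0.69, SE 0.138, limma adjusted p = 0.34, and 0.0287 in the blocked fit of 4 libraries). Bach2, a repressor that restrains plasma cell genes, had 1960.2 and 1740.2 with WT and 1199 and 1219.7 with K198Q (log2 difference -0.61, SE 0.113, limma adjusted p = 0.264, and 0.0174 in that fit). Ebf1, which works together with Pax5, had 6469 and 7608 with WT and 5545 and 6135 with K198Q. Irf4 had 2392 and 2091 with WT and 2247 and 1316 with K198Q, so that its groups overlapped. Over the 23 measured genes of the list 12 were lower and 11 higher, with a median of -0.01, the same as over all genes, and 3 (13.0%, against 1.66%) were lower and 0 higher at an unadjusted p under 0.05.

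B cell surface genes outside the receptor did not fall as a group. Of 14 measured, 8 were lower and 6 higher with K198Q, with a median log2 difference of -0.05, and 2 (14.3%, against 1.81% over all genes) were higher at an unadjusted p under 0.05. These were Cd2, an adhesion receptor also found on T cells, with 89.3 and 96.2 normalized counts with WT and 179.6 and 207 with K198Q, and H2-Aa, an MHC class II chain, with 3.04 and 8.95 with WT and 18.7 and 46.1 with K198Q. Both lay nearer to their EV values with K198Q, which were 267 and 392 for Cd2 and 34.9 and 47.3 for H2-Aa. H2-Aa reached 10 normalized counts with K198Q but in neither WT library, so that it had to differ, and without it 5 of 13 genes were higher, with a median of -0.07, and 1 at an unadjusted p under 0.05. Cd2 passed in the blocked fit of 4 libraries (limma adjusted p = 0.0418). Cd55, a complement regulator, was listed at 0 with EV and had 34.4 and 52.4 with WT, 28.3 and 22.8 with K198Q and 176 and 231 with K198R. Bcar3, an adaptor of integrin signaling, had 104 and 72.5 with WT and 70.5 and 45.7 with K198Q.

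Cytokine receptor genes differed in both directions. Il2rb, the beta chain of the IL-2 and IL-15 receptors and a gene of T and NK cells, had 229.7 and 240.2 normalized counts with WT and 567 and 524 with K198Q, against 955 and 914 with EV and 144 and 80.4 with K198R. The log2 difference of K198Q from WT was 1.21 (SE 0.254, limma adjusted p = 0.414, 0.103 with the block and 0.00973 in the blocked fit of 4 libraries). Il2ra, which encodes CD25, a marker of pre-B cells, had 10146 and 10179 with WT and 7244 and 6744 with K198Q, a log2 difference of -0.54 (SE 0.0903, adjusted p = 0.238) at which it fell with the block (adjusted p = 0.0297). The 2 chains of one receptor thus lay on opposite sides. Il2rg, the chain common to several cytokine receptors, had 3147 and 2940.2 with WT and 3452 and 3641 with K198Q. Stat3 had 5148 and 4266 with WT and 5475 and 5638 with K198Q (log2 difference 0.25, SE 0.104, adjusted p = 1).

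The receptor on which these cultures depend did not separate the forms. Il7r, the receptor chain for IL-7, had 3614 and 3058 normalized counts with WT and 3758 and 2796 with K198Q, against 1286 and 1293 with EV. The log2 difference was -0.04 (SE 0.154), and the groups overlapped. Stat5b, which carries its signal, had 2323 and 2243 with WT and 2229 and 2342 with K198Q. Il6st, a signaling chain for IL-6, had 1486 and 1436 with WT and 1678 and 1869.8 with K198Q. Over the 22 measured genes of the IL-7 and STAT list 13 were higher and 9 lower, with a median of 0.04, and at an unadjusted p under 0.05 there were 2 higher (9.09%, against 1.81%) and 1 lower (4.55%, against 1.66%).

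Genes of proliferation shifted by little. Of 32 measured, 25 were lower and 7 higher with K198Q, with a median log2 difference of -0.08, and the medians of the replicates were -0.11 and -0.06. With a library left out the median was -0.26 without K198Q replicate 2 but 0.078 without K198Q replicate 1 and 0.064 without WT replicate 2. Leaving out 1 library breaks the pairing by replicate number, so these medians also hold differences between the replicates. Within a replicate number both medians were below 0. For 0 of the 32 did both K198Q libraries lie below both WT libraries, so that the lower genes all had overlapping libraries. Rb1, the retinoblastoma gene that restrains entry into S phase, was the 1 gene at an unadjusted p under 0.05 without the block (3.12%, against 1.81%), with 601 and 605 normalized counts with WT and 704 and 747 with K198Q. Mycn, which supports the growth of early B cells, had 1872 and 1198 with WT and 2782 and 1564 with K198Q, a log2 difference of 0.48 (SE 0.312, limma adjusted p = 1) at which it was called in the blocked fit of 4 libraries (adjusted p = 0.0287), the 1 gene of the list that was. Tyms, an enzyme of DNA synthesis, had 1777 and 2029.7 with WT and 1279.9 and 1847 with K198Q, and Cdkn1a, an inhibitor of cell division, had 5068 and 4127 with WT and 6359.9 and 4797 with K198Q.

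Genes of the ERK response, feedback inhibitors and early response factors, were split 9 higher and 12 lower of 21, with a median log2 difference of -0.03. The 2 at an unadjusted p under 0.05 (9.52%, against 1.81% over all genes) were higher. Spry1, an inhibitor of the pathway, had 304 and 316 normalized counts with WT and 452 and 394 with K198Q, against 596 and 568 with EV. Klf2, a factor of lymphocyte quiescence and migration, had 121 and 162 with WT and 175 and 284 with K198Q. Dusp5, a phosphatase of ERK, had 5266 and 5456 with WT and 6038 and 6626 with K198Q, and Dusp4 had 195 and 158 with WT and 271 and 173 with K198Q. Spred2, a further inhibitor, had 869 and 943 with WT and 789 and 737 with K198Q.

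Genes of other lineages, which Pax5 holds down, lay higher with K198Q in most cases. Of 14 measured genes of the T lineage 10 were higher and 4 lower, with a median log2 difference of 0.26. Cd3g and Gata3 met the minimum of 10 through the K198Q libraries alone and so had to be higher, and without them 8 of 12 were higher, with a median of 0.14. Notch1, the receptor that starts T cell fate, had 7875 and 8363 normalized counts with WT and 10019.5 and 11693 with K198Q, against 12888 and 12524 with EV and 6697 and 5393 with K198R (log2 difference 0.42, SE 0.125, limma adjusted p = 0.939, and 0.0242 in the blocked fit of 4 libraries). Trbc1, a constant segment of the T cell receptor beta chain, had 169 and 156 with WT and 289 and 273 with K198Q, with 572 and 551 in the EV libraries. These 2 were the T lineage genes at an unadjusted p under 0.05 (14.3%, against 1.81%). Zap70, a kinase of T cell receptor signaling, had 388 and 423 with WT and 484 and 538 with K198Q (log2 difference 0.33, SE 0.179), and Cd247, the zeta chain, had 1087 and 1089 with WT and 1223 and 1265 with K198Q. Tcf7 went the other way, with 246 and 284 with WT and 160.2 and 167 with K198Q, and EV libraries at 38.9 and 67.4. Gata3, a factor of T cell commitment, was low throughout, with 9.19 and 6.98 with WT and 11.0 and 43.5 with K198Q.

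The NK and cytotoxic list had the largest median of the lists fixed for this comparison. All of its 10 measured genes were higher with K198Q in the mean, with a median log2 difference of 0.63, but 0 passed an unadjusted p under 0.05 without the block (1.81% over all genes) and 5 had libraries that did not overlap (50.0%, against 13.8%). The summed level of the measured genes was 743 and 593 normalized counts with WT and 1255 and 997 with K198Q, against 1831 and 1621 with EV. Klrd1, an NK receptor chain, had 261 and 151 with WT and 483 and 327 with K198Q, and was the 1 gene of the list called in the blocked fit of 4 libraries (limma adjusted p = 0.0201, and 1 without the block). Nkg7, a granule protein, had 192 and 219 with WT and 260.3 and 303 with K198Q. Xcl1 and Ccl5, chemokines of NK and T cells, had log2 differences of 1.70 (SE 0.870) and 1.76 (SE 0.910). Of the markers fixed for NK and T cells, Ncr1 was listed at 0 and Cd3e, Cd3d, Cd4 and Cd8a had fewer than 10 normalized counts in every library, while Lck, a kinase of T and other lymphoid cells, had 2581 and 3091 with WT and 2641 and 2669 with K198Q, and Klrb1c, an NK receptor, had 20.3 and 6.39 with WT and 24.0 and 13.3 with K198Q. The part of NK or T cells in these values was not tested. The median of the list was 1.18 without WT replicate 1, 1.11 without K198Q replicate 2 and 0.42 with a pseudocount of 10.

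Among 17 measured myeloid genes 12 were higher and 5 lower, with a median log2 difference of 0.20, and at an unadjusted p under 0.05 there were 5 higher (29.4%, against 1.81% over all genes) and 0 lower. Tyrobp, the adaptor DAP12 of myeloid and NK receptors, had 742 and 479 normalized counts with WT and 1615 and 1238 with K198Q, against 2299 and 1897 with EV and 392 and 158 with K198R. The log2 difference was 1.24 (SE 0.401, limma adjusted p = 1, 0.103 with the block and 0.00495 in the blocked fit of 4 libraries). Itgam, an integrin of myeloid cells, had 319 and 257 with WT and 551 and 493 with K198Q (limma adjusted p = 1, and 0.0196 in the blocked fit of 4). Csf1r, the receptor for M-CSF, was low, with 7.79 and 7.56 with WT and 30.7 and 23.1 with K198Q; it met the minimum of 10 through the K198Q libraries alone, and without it 11 of 16 genes were higher, with a median of 0.18, and 4 of them at an unadjusted p under 0.05. Mpo, the peroxidase of granulocyte precursors, had 30.1 and 44.2 with WT and 73.3 and 95.0 with K198Q, and Prtn3, a protease of the same granules, had 129 and 113 with WT and 192 and 206 with K198Q. Lyz2, the lysozyme of macrophages, went the other way, with 126 and 155 with WT and 90.6 and 103 with K198Q. Over the myeloid list the sum was 14417 and 13002 with WT and 18119 and 16146 with K198Q.

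Progenitor genes were evenly split, 7 higher and 7 lower of 14, with a median log2 difference of 0.02. Flt3, a cytokine receptor of early progenitors and a known target of repression by Pax5, had 5028 and 4626 normalized counts with WT and 6974 and 6057 with K198Q, against 10022 and 8343 with EV (log2 difference 0.43, SE 0.123, limma adjusted p = 0.887, 0.0517 with the block and 0.0181 in the blocked fit of 4 libraries). Cd27, a receptor of the TNF receptor family, had 173 and 168 with WT and 249 and 224 with K198Q. Hoxa9, a homeobox factor of early progenitors, had 868 and 912 with WT and 1089.8 and 1148 with K198Q, and Cd34 had 102 and 60.5 with WT and 104 and 102 with K198Q.

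Adhesion and homing genes included 3 of 15 (20%, against 1.81% over all genes) that were higher at an unadjusted p under 0.05, with 9 higher and 6 lower and a median log2 difference of 0.01. Itgb7, the beta chain of an integrin of gut homing, had 272 and 188 normalized counts with WT and 545 and 587 with K198Q, against 1122 and 933 with EV and 215 and 102 with K198R (log2 difference 1.32, SE 0.339, limma adjusted p = 0.69, 0.122 with the block and 0.0179 in the blocked fit of 4 libraries). Cd44, the receptor for hyaluronan, had 1166 and 824 with WT and 1906 and 1413 with K198Q, a log2 difference of 0.74 (SE 0.267, adjusted p = 1) at which it rose with the block (adjusted p = 0.0205). Replicate 1 was the higher of the 2 libraries of Cd44 in every group. Itgb2, the common chain of leukocyte integrins, had 1189 and 1130.0 with WT and 1514 and 1450.1 with K198Q.

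The interferon list held members on both sides. Of 12 measured 8 were higher and 4 lower, with a median log2 difference of 0.27, yet the 3 at an unadjusted p under 0.05 (25%, against 1.66% over all genes) were lower. These were guanylate-binding protein genes, GTPases induced by interferon, which are paralogs of each other. Gbp2 had 583 and 677 normalized counts with WT and 242 and 250.4 with K198Q, against 77.5 and 98.4 with EV (log2 difference -1.35, SE 0.238, limma adjusted p = 0.253, and 0.00638 in the blocked fit of 4 libraries). Gbp7 had 5288 and 4969 with WT and 3463 and 3235 with K198Q, a log2 difference of -0.61 (SE 0.141, adjusted p = 0.533) at which it fell with the block (adjusted p = 0.0477). Gbp3 had 1222 and 1143 with WT and 764 and 642 with K198Q (limma adjusted p = 1, and 0.0131 in the blocked fit of 4). All 3 had K198Q libraries between those of EV and WT. Gbp4, of the same family, went the other way, with 1181 and 975 with WT and 1422 and 1293 with K198Q (log2 difference 0.34, SE 0.422; named after its values were seen). Bst2, which tethers viruses to the cell surface, had 1604 and 1598 with WT and 2128 and 2027 with K198Q (limma adjusted p = 1, and 0.0462 in the blocked fit of 4).

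**Figure D4:**
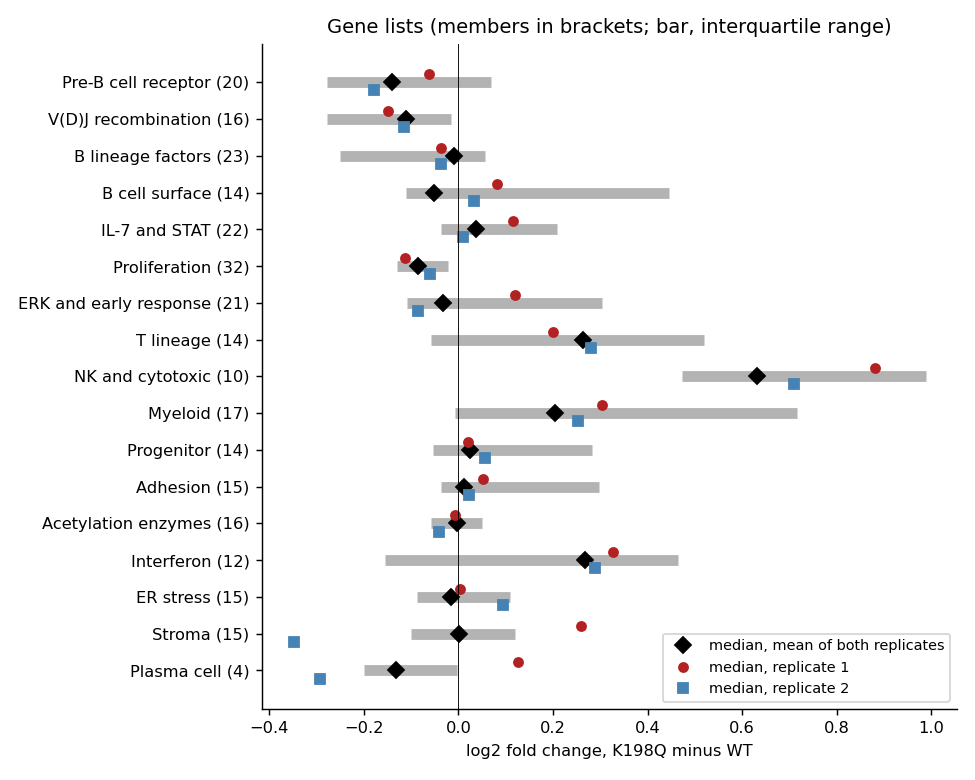
Median log2 fold change of K198Q against WT for 17 gene lists, with the number of measured genes in brackets; diamonds give the median over the mean of both replicates, circles and squares the medians of replicates 1 and 2, and bars the interquartile range. The NK and cytotoxic list has the highest median, 0.63, and the stroma list has replicate medians of opposite sign, 0.26 and -0.35; a median over the mean can lie outside both replicate medians.

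Markers of cells outside the blood lineage varied with the library. The summed level of 15 stroma genes, which the OP9 feeder cells express, was 4105 and 9019 normalized counts with WT. It was 4514 and 7100 with K198Q, against 4402 and 5507 with EV. According to the methods, infected pro-B cells were selected by a sort for hCD4, a marker carried by the vector. Col1a1, a collagen of fibroblasts, had 213 and 574 with WT and 255 and 389 with K198Q, so that WT replicate 2 stood highest. The median log2 difference over the stroma list was 0.00, with 8 genes higher and 7 lower, but 0.26 in replicate 1 and -0.35 in replicate 2. Pdgfrb, a receptor of stromal cells, had 216 and 260.1 with WT and 289 and 406 with K198Q, against 785 and 718 with EV and 101 and 63.5 with K198R. Timp3, Thbs1 and Mgp, matrix proteins, had overlapping libraries. Both measured genes of the red cell list, Hbb-bt and Epor, overlapped as well, at no more than 49.1 normalized counts in a K198Q or WT library. Of 4 measured plasma cell genes 1 was higher and 3 were lower. Jchain, by far the most abundant of them, had 42233 and 36763 with WT and 49783 and 43961 with K198Q, Xbp1 and Derl3 overlapped, and Sdc1 had 134 and 221 with WT and 138 and 166 with K198Q. The part of these cells in the differences above was not tested.

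Anti-Pax5 ChIP-seq peaks from the same kind of cells were set beside the RNA values. The authors called peaks in each sample over its own input, and the lists held 10646 and 11830 peaks for WT and 3750 and 3957 for K198Q, with a median fold enrichment over input of 5.69 and 5.68 for WT and 5.60 and 5.67 for K198Q. A gene was given a peak of a form where a peak in both replicate lists lay within 5 kb of an annotated start. Over 1582 genes with a peak of both forms the median log2 difference of RNA between K198Q and WT was -0.01, over 1629 genes with a WT peak and no K198Q peak -0.00079, and over 5905 genes with no peak -0.01. Each of these medians lay close to that over all genes, -0.01.

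Within the classes set by K198R the promoter peaks were unevenly spread. Of the raised genes 25.0% had a peak of both forms and 39.4% none, and of the lowered genes 5.22% had a peak of both forms and 68.3% none, against 12.2% and 45.1% of genes in neither class. Of the 33 raised genes with peaks of both forms, 31 were lower with K198Q, with a median log2 difference of -0.56. The 14 raised genes with a WT peak and no K198Q peak had a median of -0.58, and the 52 with no peak -0.42. Among lowered genes the medians were 0.23 for 13 genes with both peaks, 0.69 for 23 with a WT peak and no K198Q peak, and 0.50 for 170 with none. The direction was the same in these 3 peak classes, and genes with other peak patterns were not split in this way.

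At several of the genes named above the WT peak had a K198Q peak of smaller enrichment, while others overlapped or had no K198Q peak. The Cd79a peak at chr7:24897187-24897636 had fold enrichments of 12.3 and 24.8 with WT and 4.89 and 7.42 with K198Q, and that of Blnk at chr19:40993743-40994424 had 15.9 and 23.5 with WT and 10.1 and 12.05 with K198Q. At Rag1, chr2:101648258-101648899, the values were 13.9 and 9.19 with WT and 6.12 and 4.48 with K198Q. In these 3 genes K198Q enrichment and K198Q RNA were both below WT. At Stat3 the enrichment was smaller with K198Q (4.35 and 4.48, against 4.86 and 5.37), whereas its RNA was higher (log2 difference 0.25). Enrichments overlapped at Vpreb3 and at Vpreb1a, the latter with 33.4 and 20.5 with WT and 14.7 and 25.1 with K198Q. The log2 differences of RNA there were -0.49 and -0.19. Peaks at Cd79b and Mycn, and those at Zap70 and Stat5b, had no K198Q counterpart in either list. Their log2 differences of RNA were -0.19 for Cd79b, 0.48 for Mycn, 0.33 for Zap70 and 0.0011 for Stat5b.

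To show what such sites look like, the 201 bases around the summit of 2 WT peaks are given, on the plus strand of GRCm38, with the 21 bases at the summit in capitals. The Vpreb3 peak, at chr10:75949729-75949929, has its summit past the 3' end of the gene (chr10:75943057-75949657, plus strand), 1529 bases past the nearest annotated start, and was kept with K198Q, at fold enrichments of 27.8 and 12.5 with WT and 16.6 and 19.6 with K198Q. The Zap70 peak, at chr1:36766517-36766717, lies inside the gene (chr1:36761798-36782818, plus strand), 317 bases before an annotated start of a shorter transcript, and had 4.51 and 6.23 with WT and no K198Q peak.
Vpreb3: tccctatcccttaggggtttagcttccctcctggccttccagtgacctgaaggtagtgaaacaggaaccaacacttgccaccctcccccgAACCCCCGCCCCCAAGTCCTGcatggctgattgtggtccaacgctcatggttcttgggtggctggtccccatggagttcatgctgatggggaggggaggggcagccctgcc
Zap70: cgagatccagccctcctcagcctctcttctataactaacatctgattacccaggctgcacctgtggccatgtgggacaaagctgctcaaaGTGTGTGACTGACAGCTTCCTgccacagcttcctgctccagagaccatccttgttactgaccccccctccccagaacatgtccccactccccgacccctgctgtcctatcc
Neither window holds GCNTGAC, a core of the site of the paired domain, or GAGGAAGT, a site of ETS factors, on either strand, which says only that these letters are not in these windows.

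Over all WT peaks in both lists, 16.4% of 7908 windows of 201 bases around the summit held GCNTGAC and 3.86% held GAGGAAGT, the 2 motifs having been searched on both strands. The share with GCNTGAC was 21.3% of 2343 WT peaks that were also in both K198Q lists and 14.1% of 3533 that were in neither, and their median fold enrichment in WT replicate 1 was 9.67 and 5.34. For GAGGAAGT the shares were 3.76% and 3.93%. In RefSeq promoters of GRCm38, of 300 bases each, GCNTGAC was found in 10.7% of 32851, in 12.1% of 140 that belong to genes raised by K198R and in 8.70% of 230 that belong to genes lowered by it. A match is a description of the sequence and not evidence of a bound site.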

How the data were processed

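RNA of 8 libraries was analysed, 2 each with EV, WT, K198Q and K198R. For these the authors ran Salmon on mm10, corrected for GC bias, brought the estimates to gene level through Tximeta, and deposited counts that DESeq2 had scaled by median of ratios, a signal that is not whole reads, so that no count model was fitted. In ChIP-seq, Bowtie2 aligned the reads and MACS2 called the peaks, for which the authors deposited each peak's fold enrichment over input, a ratio, and its −log10 q-value. Versions of Salmon, Tximeta, DESeq2, Bowtie2 and MACS2 are not given in the sources used here. The 13345 genes that reached 10 normalized counts in 2 or more of the 8 libraries were taken as log2(value + 1). The model, in limma 3.58.1 (R 4.3.3), had the 4 groups, a variance trend and Benjamini-Hochberg adjustment over all of them; the 12978 genes described are among these. The added 1 makes log2 fold changes understate the change of low genes.

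The pairing of replicate numbers comes from the methods, which place the replicates on different days, and was checked in the data: deviations from the group means correlated between every pair of groups, at 0.264 to 0.383 across genes. In limma, leaving out 1 library leaves its group with a single library, which was taken to vary like the other groups. On simulated data for K198Q against WT with 13345 genes, the fit recovered 57% of 100 genes changed by 1 on the log2 scale. It recovered 84% of 100 changed by 2, with 4 false calls. These shares hold for the simulated data and do not give the power in the real libraries. There Gldc, at a log2 difference of -2.30, had a limma adjusted p of 0.0679, and Dock1, at -3.65, had 0.128. Few calls are therefore no sign that changes of this size were absent. The study describes 2 biological replicates per group and, for mouse experiments in general, 1 mouse per replicate, but the labels tie no library to an animal, and p-values measure the spread between these libraries.

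The members, gene lists and tests were chosen with earlier results of these data known. Named genes were those the study names for these libraries, where they were members, the called genes or, failing those, the smallest p in each direction among genes whose libraries did not overlap, and up to 4 per list with the smallest p; 1 gene without a symbol in the table is not described, and a few others are not reported here. Positions are those of GRCm38, and the promoters come from RefSeq. Alternatives were other pseudocounts, filters, scalings, replicate blocks and variance models, each library left out, and other limits for classes and peaks. The other RNA tables, of sorted cells and of Sirt7-/- cells, and the peak lists of K198R were not used here.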

Additional observations from a re-analysis of the deposited data

How the results depend on the processing

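The 3 calls of the comparison became 5 with a pseudocount of 0.5, 9 with 10, 8 with only the 4 K198Q and WT libraries, 29 with the replicate block, 221 with the block in those 4 libraries and 5 with quantile normalization. With a filter of 100 normalized counts there were 0 in limma, with 311 at an unadjusted p under 0.05. With each library left out in turn the count was between 0 and 2, with 0 without WT replicate 1 or K198Q replicate 1. Listed genes at an unadjusted p under 0.05 went from 29 of 279 to between 18 and 26 without a WT or K198Q library. The median of the raised class was -0.33 for a limit of 1 and -0.66 for 3, and between -0.86 and -0.37 with a library left out; that of the lowered class was 0.42 and 0.78, and between 0.48 and 0.63, with no value without either EV library, since 0 genes were then lowered. Limited to genes averaging at least 100, chosen after seeing the data, the medians were -0.50 and 0.51, and without genes at 10 or more in only 1 of the 2 groups, likewise chosen, -0.45 and 0.49. The median of genes with no promoter peak was -0.0064 within 1 kb, -0.016 within 20 kb and -0.010 at a −log10 q of at least 5. Of the medians of gene lists under the alternatives, 40 moved and 79 did not. Without a WT or K198Q library the median ranged from 0.57 to 1.18 for the NK and cytotoxic list, 0.13 to 0.39 for the myeloid list, -0.21 to -0.05 for V(D)J recombination and -0.15 to -0.06 for the pre-B cell receptor, and it changed sign for the lists of proliferation, ERK response, IL-7 and STAT, B cell surface, plasma cell, stroma, endoplasmic reticulum stress and acetylation genes. Leaving out a WT or K198Q library also breaks the pairing by replicate number, so the values then hold differences between the replicates too. Where no cause is given it was not tested.

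Among named genes 71 alternative values passed the threshold where the main value had not, 26 the reverse, and 20 changed sign. With a WT or K198Q library left out, the log2 differences of the genes that changed sign ranged from -0.76 to 0.0071 for Irf4, -0.25 to 0.18 for Il7r, -0.034 to 0.037 for Stat5b, -0.017 to 0.63 for Dusp4, -0.021 to 0.17 for Hdac3, -0.023 to 0.24 for Ppp1r15a, -0.22 to 0.58 for Thbs1, -0.36 to 1.06 for Mgp, -1.02 to 0.18 for Hbb-bt, -0.32 to 0.29 for Epor, -0.54 to 0.18 for Sdc1, -0.29 to 0.12 for Xbp1 and -0.68 to 0.16 for Derl3. With quantile normalization Epor was at 0.033.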

Other observations

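Genes of enzymes that add or remove acetyl groups differed little between the forms. Of 16 measured, 8 were higher and 8 lower with K198Q, with a median log2 difference of -0.00, and 0 were at an unadjusted p under 0.05 in limma. Sirt1, a nuclear deacetylase, had 1111 and 1134 normalized counts with WT and 1043 and 1078 with K198Q. Sirt2 had 938 and 929.6 with WT and 995 and 991 with K198Q, and Sirt5 and Hdac3 overlapped, with log2 differences of -0.12 and 0.08. Both K198Q libraries lay above both WT libraries for 1 gene of the list, Sirt2 (6.25%, against 13.8% over all genes). They lay below both for 1, Sirt1 (6.25%, against 14.7%).

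Genes of the response to stress of the endoplasmic reticulum were split 7 higher and 8 lower of 15, with a median log2 difference of -0.02. At an unadjusted p under 0.05 in limma without the block there were 0. Herpud1, a component of the removal of misfolded proteins, had 2454 and 2159 normalized counts with WT and 2709 and 2368 with K198Q. Chac1, Ppp1r15a and Herpud1 overlapped between the groups. Sesn2, a gene induced by amino acid stress, had 422 and 399 with WT and 549.5 and 471 with K198Q, which did not overlap. With the replicate block its unadjusted p in limma was 0.0246 (adjusted p = 0.502).

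Ribosomal protein genes, a list added after the data were seen, were lower with K198Q for 63 of 83 in the mean, with a median log2 difference of -0.04, but the replicates had medians of 0.04 and -0.12, on opposite sides of 0.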
